A study of Homo sapiens with 6 samples.

Results

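The translation initiation and elongation factors, named EIF and EEF, carried more edited cytosines after editing with RBFOX2 antibody and enzyme than after buffer alone. Over enzyme alone, none of their 53 isoforms tested was called higher (0.0525% of all isoforms). The rise over buffer lay mostly at cytosines preceded by A or U. That split was made after the values had been seen, and no isoform passed a direct test of it. The median difference from buffer turned below 0 when libraries were scaled to the same total of edits. The rise over buffer was not particular to the EIF and EEF genes: 32 of their 50 isoforms tested were called higher, against 60.0% of all isoforms tested. Their median log2 difference from buffer alone was 1.28, against 1.57 for all isoforms. The EIF and EEF genes were chosen by name: every protein-coding gene of GENCODE release 44 whose symbol begins with EIF or EEF followed by a digit. Of 71 such genes, 53 had at least 1 listed edit, in 75 isoforms, out of 7684 genes and 9831 isoforms listed in all. There were 64 protein-coding isoforms, 8 retained-intron isoforms and 3 isoforms annotated as targets of nonsense-mediated decay. The 18 genes with no listed edit included EEF1A2, EEF2K, EIF2AK3, EIF2AK4, EIF3I, EIF4G3 and EIF4ENIF1. EIF3C was also not listed while its near-identical copy EIF3CL was, so the assignment between these copies is uncertain.

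The 6 libraries were made from fixed HEK293T cells, a human embryonic kidney line that the labels also call HEK293XT, and were sequenced as full-length cDNA on the PacBio platform with 1 SMRT Cell each. In the 2 RBFOX2-INSCRIBE libraries a rabbit antibody against RBFOX2 recruited Apo1-Nb, a purified fusion of the cytidine deaminase APOBEC1 and a nanobody against rabbit IgG, which converts nearby C to U in RNA. The 2 enzyme-only libraries received Apo1-Nb without the antibody, and the 2 buffer-only libraries received neither. The labels number the enzyme-only libraries 2 and 3 in their titles, and those numbers are used here; a separate replicate tag numbers them 1 and 2. Nothing in the labels says that replicates came from separate cultures, and the paper's legends call the replicates of its short-read INSCRIBE libraries technical. The p-values therefore measure the spread between these libraries, which by that account is technical, and not a spread between independent cultures.

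Translation initiation begins when eIF2, bound to GTP and initiator tRNA, joins the small ribosomal subunit with eIF1, eIF1A, eIF3 and eIF5, while the eIF4 factors bring the capped mRNA to this complex. Elongation is then driven by eEF1A, which delivers aminoacyl-tRNA, and by eEF2, which moves the ribosome along the mRNA. RBFOX2 is an RNA-binding protein that recognises UGCAUG and is best known as a regulator of alternative splicing, and APOBEC1 is known to prefer cytosines that follow A or U.

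The following stretches of spliced mRNA are shown because they hold a member edit found in both RBFOX2-INSCRIBE libraries, in none of the other 4, and close enough to UGCAUG to fit in 1 window; they are among the 10 such sites within 50 nt of the motif with the highest edit fractions. Capitals mark the edited C and the UGCAUG motif, which is written TGCATG as in the GENCODE 44 transcripts (hg38). Each is written 5′ to 3′ on the strand of the gene.
EIF3A, 3′ UTR, chr10:119034774-119034803, minus strand: tgtgTGCATGtgcgtgtttgaagtaCcacc
EIF1B, 3′ UTR, chr3:40312138-40312167, plus strand: attcacatcTGCATGattaCagaaaacatg
EIF2S3, 3′ UTR, chrX:24077598-24077627, plus strand: ttTGCATGaaaaggaaatgaatggattCga
EIF1AX, 3′ UTR, chrX:20125869-20125898, minus strand: ttCttaccaagcctgtaaactaTGCATGat
EIF5, coding sequence, chr14:103336846-103337141 across an exon junction, plus strand: ttTGCATGtcaatccaaagaagcaaaCaat
The edited C lay 16 nt downstream of the motif in EIF3A, 5 nt in EIF1B, 20 nt in EIF2S3 and 19 nt in EIF5, and 20 nt upstream in EIF1AX. The EIF3A site was edited in 0.909% of the isoform's reads in RBFOX2-INSCRIBE replicate 1 and 2.70% in replicate 2. The EIF1B site was edited in 1.03% and 1.82%, the EIF2S3 site in 1.08% and 1.18%, the EIF1AX site in 0.941% and 0.612%, and the EIF5 site in 0.40% and 0.829%. No read numbers accompany these fractions, so their depth is unknown and a fraction could rest on 1 edited read. Another EIF1B site, 36 nt downstream of the motif, had the same 1.03% and 1.82%. Whether the same reads carried both edits was not tested. At such levels a position missing from a library may simply have had too few reads there.

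In total, 8151 distinct genomic positions of the member genes were edited in at least 1 library. Most were seen once: 5198 in 1 library, 1815 in 2, 877 in 3, 215 in 4, 46 in 5 and 0 in all 6, the last by construction, since the study removed edits present across all samples. There were 351 sites, in 35 genes, in both RBFOX2-INSCRIBE libraries and in none of the other 4, and 25 of them had UGCAUG within 50 nt. The corresponding number was 105 for the enzyme-only pair and 49 for the buffer-only pair. These sites were not counted over all genes, so the numbers are not read as a trait of the members. The libraries also differed in their sites over all genes. There were 200635 and 205791 in RBFOX2-INSCRIBE, 86019 and 153741 in enzyme-only, and 72721 and 71420 in buffer-only.

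The member genes had 2941 and 2884 edited sites in RBFOX2-INSCRIBE replicates 1 and 2, 1609 and 2397 in enzyme-only replicates 2 and 3, and 1350 and 1368 in buffer-only replicates 1 and 2. The means were 2912.5 ± 40.3 (SD, n = 2), 2003 ± 557 (SD, n = 2) and 1359 ± 12.7 (SD, n = 2), with no overlap between the groups. All genes together had between 71420 sites, in a buffer-only library, and 205791, in an RBFOX2-INSCRIBE library. The member genes therefore took up 1.47% and 1.40% of all sites in RBFOX2-INSCRIBE, against 1.87% and 1.56% in enzyme-only and 1.86% and 1.92% in buffer-only. The share was lower in both RBFOX2-INSCRIBE libraries than in each control library, but not among edits in at least 2.0% of reads, where it was 0.424% and 0.595%, 0.524% and 0.541%, and 0.566% and 0.658%. With 2 libraries against 2, a two-sided exact permutation test cannot go below 0.33, and no p-value is given for these totals.

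Individual isoforms were compared by editsC, the distinct edited Cs of an isoform as a share of all Cs in its exons, with limma fitted over all isoforms. The paper filtered isoforms by read coverage and edit fraction before calling bound ones, which was not done here. The members' edited Cs had median edit fractions of 0.199% and 0.245% in RBFOX2-INSCRIBE, 0.209% and 0.197% in enzyme-only, and 0.141% and 0.138% in buffer-only. Over all isoforms the medians ran from 0.518% to 0.763%. In RBFOX2-INSCRIBE 164 and 230 of the members' edited Cs were in at least 2.0% of reads, too few to test most member isoforms. The RBFOX2-INSCRIBE to buffer-only comparison asks what antibody and enzyme together add to the C-to-U changes listed with neither. In it 32 of the 50 member isoforms tested rose at an adjusted p under 0.05 and none fell, while 60.0% of all isoforms tested rose and 0.0746% fell. Both RBFOX2-INSCRIBE libraries were above both buffer-only libraries in 38 of the 50, against 79.9% of all isoforms. The members' median log2 difference was 1.28, against 1.57 for all isoforms. The call rested on having both RBFOX2-INSCRIBE libraries: without replicate 1, 3 members rose (7.05% of all isoforms), and without replicate 2, 2 rose (6.44%). When every library was scaled to the same total of edited Cs, no member rose in limma (0.112% of all isoforms), 2 fell (0.317%), 21 had an unadjusted p under 0.05 in either direction (23.9%), and the members' median was -0.20 against 0.14 for all isoforms; differences below are unscaled unless stated.

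The smallest adjusted p-values belonged to isoforms of EIF1AX, EIF2S1, EIF4E and EIF2S3. EIF1AX encodes eIF1A, which helps the scanning ribosome settle on the start codon, and its isoform EIF1AX-202 (ENST00000379607) spans chrX:20124525-20141838. It had 247 and 279 edited Cs in RBFOX2-INSCRIBE, 94 and 184 in enzyme-only and 52 and 58 in buffer-only, out of 719 Cs. The groups did not overlap, and editsC was 36.6% ± 3.15, 19.3% ± 8.85 and 7.65% ± 0.590 (SD, n = 2 each). The log2 difference from buffer-only was 2.25 (SE 0.16; limma adjusted p = 0.000453), and scaled to the same total it was 0.74.

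The subunits of eIF2 rose as well. EIF2S1, the alpha subunit whose phosphorylation slows initiation, had 138 and 137 edited Cs in RBFOX2-INSCRIBE, 53 and 108 in enzyme-only and 36 and 39 in buffer-only (log2 difference from buffer-only 1.86, SE 0.19; limma adjusted p = 0.000453). EIF2S3, the gamma subunit that binds GTP and the tRNA, had 111 and 152, then 51 and 84, then 32 and 33 (1.98, SE 0.22; limma adjusted p = 0.000542). EIF2S2, the beta subunit, had 43 and 48, 33 and 39, and 21 and 16 (1.29, SE 0.26; limma adjusted p = 0.00483). For each subunit both RBFOX2-INSCRIBE libraries were above both buffer-only libraries and above both enzyme-only libraries. Of eIF2B, the exchange factor that reloads eIF2 with GTP, EIF2B1 rose (log2 difference 1.15) and EIF2B3 and EIF2B5 did not pass. Together 4 of the 6 isoforms of eIF2 and eIF2B tested rose, with a median of 1.22, and of -0.23 after scaling.

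**Figure D1:**
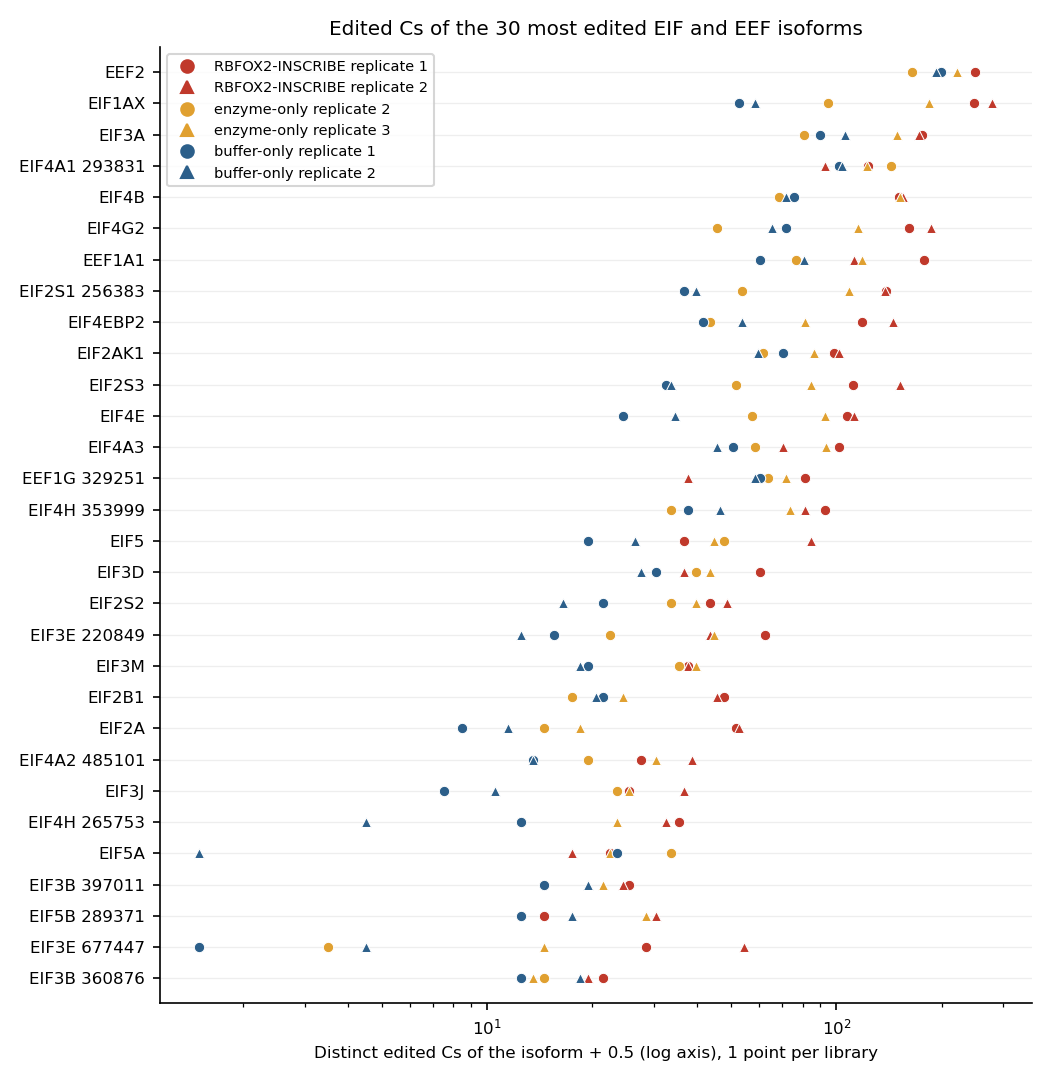
Distinct edited Cs plus 0.5 (log axis) of the 30 member isoforms with the most edits, with 1 point per library and the last 6 digits of the transcript identifier where a gene has several isoforms. In EIF1AX, EIF2S1, EIF2S3 and EIF4E both RBFOX2-INSCRIBE points lie right of all others, in EEF2 and EIF4A1 the groups overlap, and in EIF5A a single buffer-only library (1 edited C) stands apart.

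Among the eIF4 factors 10 of 14 isoforms, in 6 of 9 genes, rose over buffer-only (median 1.17, and -0.32 after scaling). EIF4E, which binds the mRNA cap, had 107 and 112 edited Cs in RBFOX2-INSCRIBE, 57 and 92 in enzyme-only and 24 and 34 in buffer-only, and rose by a log2 of 1.92 (SE 0.20; limma adjusted p = 0.000464). EIF4G2, an eIF4G relative used in cap-independent initiation, had 161 and 186, 45 and 115, and 71 and 65 (1.34, SE 0.17; limma adjusted p = 0.000797). EIF4B, a helper of the eIF4A helicase, had 151 and 155, 68 and 152, and 75 and 71 (1.06, SE 0.16; limma adjusted p = 0.0015). In EIF4B enzyme-only replicate 3 reached the RBFOX2-INSCRIBE level and replicate 2 lay below buffer-only, so the enzyme-only pair spanned the whole range. Outside that list, EIF4EBP2, a repressor that sequesters eIF4E, had 118 and 145, 43 and 81, and 41 and 53 (1.48, limma adjusted p = 0.00411).

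EIF4A1, the main cytoplasmic eIF4A helicase, did not pass. It had 123 and 92 edited Cs in RBFOX2-INSCRIBE, 143 and 122 in enzyme-only and 101 and 103 in buffer-only, with a log2 difference from buffer-only of 0.06 (SE 0.16; limma adjusted p = 0.753). Its editsC was the highest of any member isoform in each of the 4 control libraries, at 24.1% ± 0.334 in buffer-only (SD, n = 2). Of its paralogue EIF4A2, 4 isoforms were tested and all 4 rose over buffer-only, by 1.27 to 2.73. The largest of these was the nonsense-mediated decay isoform EIF4A2-202 (ENST00000425053), with 23 and 16 edited Cs in RBFOX2-INSCRIBE, 2 and 8 in enzyme-only and 3 and 2 in buffer-only (2.73, SE 0.41; limma adjusted p = 0.00137). These 4 isoforms share most of their exons, so their edits are not independent of one another. The difference between EIF4A1 and EIF4A2 was not tested. Of the EIF4H isoforms, EIF4H-202 rose with 92 and 81, 33 and 73, and 37 and 46 edited Cs (1.06; limma adjusted p = 0.00407), as did EIF4H-201 with 35 and 32, 12 and 23, and 12 and 4 (2.18; limma adjusted p = 0.00894).

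Within eIF3, the scaffold that holds the small subunit ready, 7 of 13 isoforms, in 5 of 9 genes, rose over buffer-only (median 1.31, and -0.10 after scaling). The largest difference of any member was in EIF3E-234 (ENST00000677447, chr8:108230122-108248730), an isoform of the EIF3E subunit gene with 82.9% of its Cs in the 3′ UTR. It had 28 and 54 edited Cs in RBFOX2-INSCRIBE, 3 and 14 in enzyme-only and 1 and 4 in buffer-only, which is a log2 difference of 3.92 (SE 0.63; limma adjusted p = 0.00183). Both RBFOX2-INSCRIBE libraries lay above the other 4, and the enzyme-only and buffer-only counts overlapped. The edit fractions summed over its positions were 1.05 and 1.64, 0.196 and 0.40, and 0.0286 and 0.0792. EIF3E-201 (ENST00000220849) had 62 and 43, 22 and 44, and 15 and 12 edited Cs (1.91; limma adjusted p = 0.00106), and the decay isoform EIF3E-225 had 9 and 12, 5 and 12, and 1 and 1 (2.86; limma adjusted p = 0.0017). A retained-intron isoform, EIF3E-243 (ENST00000677965), was listed with 10 and 6 edited Cs in the RBFOX2-INSCRIBE libraries and with none in the other 4, but fell below the minimum for testing. EIF3F, another subunit, had a decay isoform, EIF3F-214, with 16 and 12, 8 and 4, and 1 and 2 edited Cs (2.89; limma adjusted p = 0.00655), while its retained-intron isoform EIF3F-211, at 17 and 3 against 3 and 0 in buffer-only, did not pass (2.56; limma adjusted p = 0.13). The isoforms EIF3B-201 and EIF3B-202 of a further subunit did not pass either, with 21 and 19 against 12 and 18, and 25 and 24 against 14 and 19, in buffer-only (limma adjusted p = 0.37 and 0.198).

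Small counts lay behind some other large values. EIF1B, a close relative of the start-codon fidelity factor eIF1, had 18 and 6 edited Cs in RBFOX2-INSCRIBE, 10 and 3 in enzyme-only and 1 and 0 in buffer-only (log2 difference from buffer-only 3.66, SE 0.72; limma adjusted p = 0.00432). EIF2A and EIF2D, which can deliver initiator tRNA without eIF2, rose by 2.39 and 2.46. EIF2A had 51 and 52, 14 and 18, and 8 and 11 edited Cs (limma adjusted p = 0.00124), and EIF2D-201 had 16 and 11, 2 and 6, and 2 and 2 (limma adjusted p = 0.00531). In 12 of the 50 isoforms tested the buffer-only mean was under 5 edited Cs, where the value of the fold depends on the added 0.5. The entry rule averaged over both groups, and the RBFOX2-INSCRIBE mean was under 5 in 0 of the 50. Those 12 isoforms, EIF1B and EIF3E-234 among them, thus entered only through RBFOX2-INSCRIBE, which favours a rise. They stay among the 50, and all isoforms tested entered by the same rule.

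**Figure D2:**
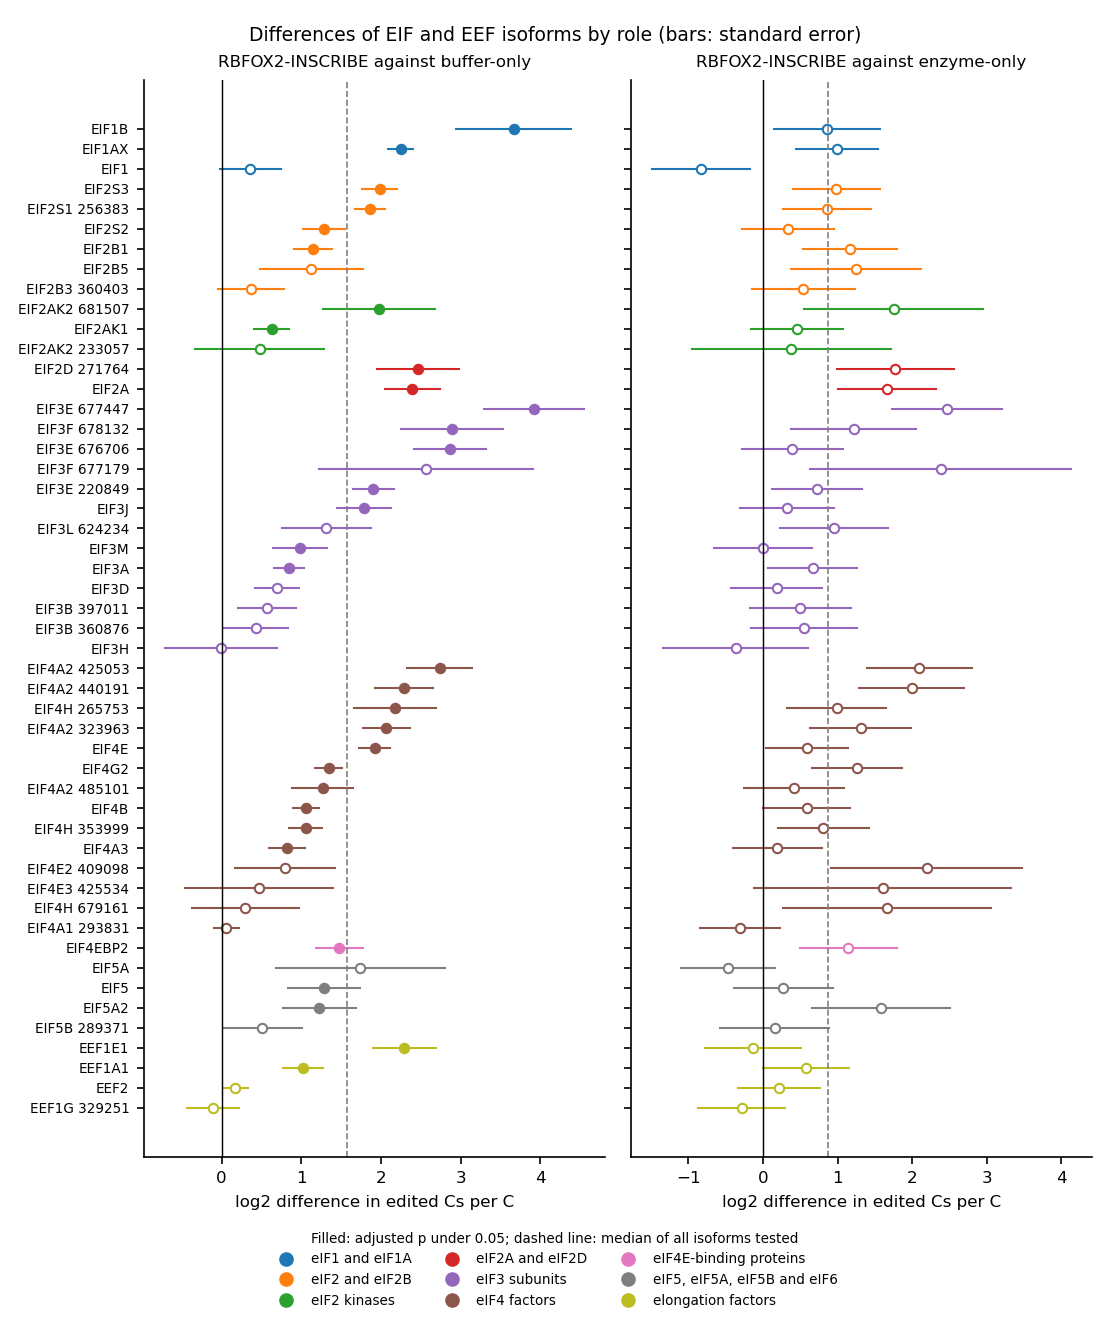
Log2 differences in edited Cs per C of RBFOX2-INSCRIBE from buffer-only (left) and from enzyme-only (right), for the 50 member isoforms tested on the left, with standard errors, coloured by role, and with the median of all isoforms tested as a dashed line. On the left 32 isoforms are filled (adjusted p under 0.05) and on the right none is, and scaling to the same total moves the members' medians to -0.20 and -0.24.

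Of the elongation factors, EEF2, with 248 and 196 edited Cs in RBFOX2-INSCRIBE, 164 and 221 in enzyme-only and 199 and 192 in buffer-only, overlapped between every pair of groups. Its log2 difference from buffer-only was 0.17 (SE 0.16; limma adjusted p = 0.35), and editsC was 23.4% ± 3.88, 20.3% ± 4.25 and 20.6% ± 0.522 (SD, n = 2 each). EEF1G, a structural subunit of the eEF1B exchange complex, had 81 and 37, 63 and 71, and 60 and 58 edited Cs (-0.11, SE 0.32; limma adjusted p = 0.783). EEF1A1 had 178 and 112, 76 and 118, and 60 and 80 (1.02, SE 0.25; limma adjusted p = 0.0106). EEF1E1, a scaffold protein of the multi-tRNA synthetase complex, had 9 and 9, 7 and 14, and 2 and 1 (2.29; limma adjusted p = 0.00258). The list of elongation factors thus had 2 of 4 isoforms higher, with a median of 0.60, and of -0.91 after scaling.

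Of the remaining lists, 2 of 3 isoforms of the eIF2 kinases rose over buffer-only (EIF2AK1, with 98 and 101, 61 and 86, and 70 and 59 edited Cs, by 0.63 and the EIF2AK2 isoform ENST00000681507 by 1.97), as did 2 of 4 isoforms of eIF5, eIF5A and eIF5B (EIF5 by 1.29 and EIF5A2 by 1.23). EIF5A, which relieves ribosome stalling, had 22 and 17 edited Cs in RBFOX2-INSCRIBE, 33 and 22 in enzyme-only and 23 and 1 in buffer-only. One buffer-only library thus decided its log2 difference of 1.74 (limma adjusted p = 0.185). No isoform of the elongation factor methyltransferases had enough edits to be tested. Outside the family, a list of other translation genes had 13 of 19 isoforms higher, with a median of 1.68, and of 0.30 after scaling. Cytosolic ribosomal protein genes, taken by symbol, had 2 of 21 isoforms higher, with a median of 0.16, and of -1.30 after scaling; over enzyme-only their median was -0.61.

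By design the RBFOX2-INSCRIBE and enzyme-only groups differ by the antibody, since both received Apo1-Nb. Their libraries also differed in total edits, and read depth is unknown, so the unscaled comparison does not isolate the antibody. No member isoform passed an adjusted p of 0.05 among 53 tested in limma, where 0.0525% of all 5717 isoforms did, and 6 had an unadjusted p under 0.05, against 15.7% of all. In 24 of the 53 isoforms the RBFOX2-INSCRIBE counts lay wholly above the enzyme-only counts (51.1% of all), and 2 showed the opposite order (3.38% of all). The members' median log2 difference was 0.59, against 0.87 for all isoforms, and 44 of 53 were above 0; scaled to the same total, the median turned to -0.24. Without enzyme-only replicate 3, the more heavily edited of the pair, 20 members rose (31.6% of all isoforms). Leaving out any other library gave 0.

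The 8 largest differences from enzyme-only were all upward, and none passed in the fit described. EIF3E-234 led with 2.47 (SE 0.73; limma adjusted p = 0.187), and at 28 and 54 against 3 and 14 edited Cs its groups did not overlap. It passed with a replicate block (limma adjusted p = 0.0475), with a minimum mean of 10 edited Cs (0.0464) and without enzyme-only replicate 3 (0.027). The retained-intron isoform EIF3F-211 followed with 17 and 3 against 4 and 0 edited Cs (2.38; limma adjusted p = 0.427), and EIF4E2-202, of a cap-binding relative of eIF4E, with 10 and 5 against 0 and 5 (2.20; limma adjusted p = 0.349). In both the pairs of libraries overlapped or touched, and 1 enzyme-only library was empty. EIF4A2-202 (2.09), EIF4A2-205 (1.99), EIF2D-201 (1.77), the EIF2AK2 isoform ENST00000681507 (1.75) and EIF2A (1.67) completed the 8, with limma adjusted p from 0.228 to 0.402. By list, the median was 1.12 for the eIF4 factors, 0.86 for eIF2 with eIF2B, 0.53 for eIF3 and 0.04 for the elongation factors. After scaling these became 0.30, 0.03, -0.29 and -0.77, and the differences between lists were not tested.

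The enzyme-only to buffer-only comparison gives the editing of Apo1-Nb without an antibody. Of 42 member isoforms tested 1 rose, EEF1E1, with 7 and 14 against 2 and 1 edited Cs (log2 difference 2.43, SE 0.67; limma adjusted p = 0.0431), where 0.811% of all isoforms rose. It was not called without enzyme-only replicate 2 or without either buffer-only library (limma adjusted p from 0.179 to 1.0), and had too few edits to be tested without enzyme-only replicate 3. EEF1E1 entered the test only through its enzyme-only counts, since its buffer-only counts were 2 and 1. The members' median was 0.46, against 0.70 for all isoforms, and -0.21 after scaling. The other large values were EIF5A (2.21, resting on the buffer-only library with 1 edited C), EIF3E-234 (1.46), EIF3J (1.46), EIF4H-212 (-1.37), EIF4E (1.33), EIF1AX (1.25) and EIF1 (1.2), with adjusted p from 0.0848 to 0.539. EIF4H-212, a retained-intron isoform, had 0 and 11 against 4 and 8 edited Cs, and its sign followed the empty library.

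The base before the edited C separated the groups further. Among the members' edited Cs, 67.5% and 68.8% followed A or U in RBFOX2-INSCRIBE, 55.1% and 62.9% in enzyme-only and 40.4% and 39.0% in buffer-only. Over all Cs of the same isoforms, weighted by their edits, the share was between 48.6% and 51.6%. Edited Cs thus followed A or U more often than Cs at large in the 4 libraries that received Apo1-Nb, and less often in the buffer-only pair, where 37.7% and 38.3% followed G. Among edits in at least 2.0% of reads the shares after A or U were 83.5% and 79.6%, 61.9% and 77.8%, and 53.4% and 36.1%, so the groups kept their order while buffer-only replicate 1 was no longer below the 52.1% of its Cs. The largest single rise was after A, from 17.7% and 18.7% in buffer-only to 36.0% and 36.3% in RBFOX2-INSCRIBE.

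Counting each kind of C separately, a step added after the values had been seen, 37 of 50 members rose over buffer-only at Cs after A or U (66.8% of all isoforms), with a median log2 difference of 1.77. At Cs after G or C none of the 50 rose in limma (0.0% of all), 6 had an unadjusted p under 0.05 (10% of all), and the median was 0.24. The difference between the classes within an isoform was above 0 in 49 of 50 members, with a median of 1.66 against 1.86 for all isoforms. No isoform passed an adjusted p of 0.05 in a direct limma test of that difference, and 18 members had an unadjusted p under 0.05 (46.6% of all isoforms). EIF4A1 had 70 and 52 edited Cs after A or U in RBFOX2-INSCRIBE, 67 and 61 in enzyme-only and 32 and 39 in buffer-only, a log2 difference from buffer-only of 0.76 (limma adjusted p = 0.0185). At its Cs after G or C the difference was -0.52 and did not pass, since no member fell there at a limma adjusted p under 0.05. The classes thus had opposite signs under a flat total.

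**Figure D3:**
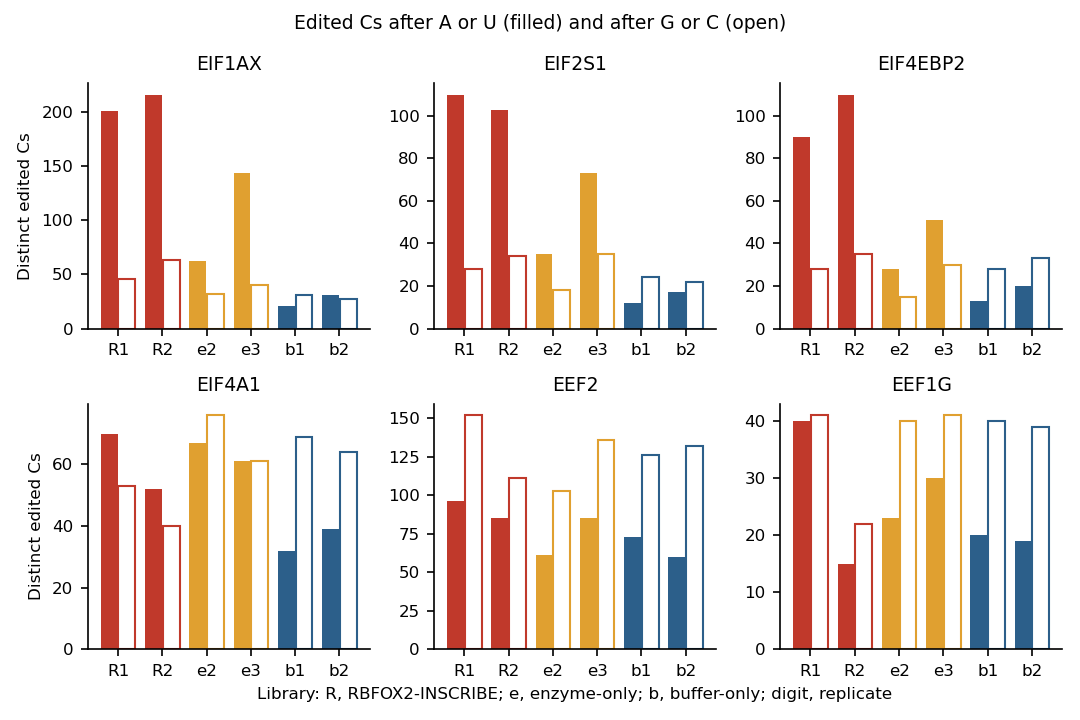
Distinct edited Cs after A or U (filled bars) and after G or C (open bars) in each library for 6 isoforms; each panel has its own axis from 0. In EIF1AX, EIF2S1 and EIF4EBP2 the filled bars of RBFOX2-INSCRIBE stand above all others, while in EEF2 and EEF1G the open bars are the taller in every library.

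EIF1AX had 201 and 216 edited Cs after A or U in RBFOX2-INSCRIBE, 62 and 144 in enzyme-only and 21 and 31 in buffer-only. EEF2 had 96 and 85, 61 and 85, and 73 and 60. EEF2 thus overlapped at its Cs after A or U between RBFOX2-INSCRIBE and enzyme-only, and its difference from buffer-only there was 0.45 (limma adjusted p = 0.058). Across the 50 members the log2 difference from buffer-only correlated with the share of an isoform's Cs that follow A or U, with a Spearman rho of 0.469 (0.527 over all 5362 isoforms). These are correlations across isoforms measured in the same libraries, given as a description.

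Position in the mRNA was counted next. In coding isoforms, counted per isoform, the members' edits in 3′ UTRs numbered 1400 and 1491 in RBFOX2-INSCRIBE, 628 and 1075 in enzyme-only and 468 and 469 in buffer-only. Edits in coding sequence numbered 1458 and 1283, 875 and 1221, and 811 and 820. The 3′ UTR share was 47.8% and 52.1%, 39.7% and 45.3%, and 35.2% and 34.8%, without overlap at this setting. The share of all Cs lying in 3′ UTRs, weighted by the same edits, was 47.8% and 51.5%, 44.8% and 47.6%, and 41.3% and 42.2%. By these counts edits lay in 3′ UTRs about as often as Cs at large in RBFOX2-INSCRIBE and less often in the controls, whereas for all isoforms the RBFOX2-INSCRIBE share was 61.2% and 62.3% against 49.2% and 49.9% of Cs. Among member edits in at least 2.0% of reads the groups overlapped, with 3′ UTR shares of 70.0% and 69.1% in RBFOX2-INSCRIBE, 53.0% and 72.3% in enzyme-only and 63.5% and 49.3% in buffer-only. These were above the share of Cs in every library except buffer-only replicate 2.

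EIF3A, the largest eIF3 subunit, rose over buffer-only by a log2 of 0.84 (SE 0.19; limma adjusted p = 0.00705), and its regions differed. Its 3′ UTR (364 Cs) had 87 and 71 edited Cs in RBFOX2-INSCRIBE, 35 and 55 in enzyme-only and 12 and 15 in buffer-only. Its coding sequence (789 Cs) had 88 and 100, 45 and 94, and 77 and 89. The 3′ UTR groups did not overlap, whereas in the coding sequence the RBFOX2-INSCRIBE and buffer-only counts overlapped. EIF1AX had 228 and 259 edited Cs in its 3′ UTR against 41 and 52 in buffer-only, and EEF2, with 777 of its 948 Cs in coding sequence, had 47 and 39 against 35 and 37 in its 3′ UTR. EIF3A and EEF2 were chosen for this contrast after the counts were seen.

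**Figure D4:**
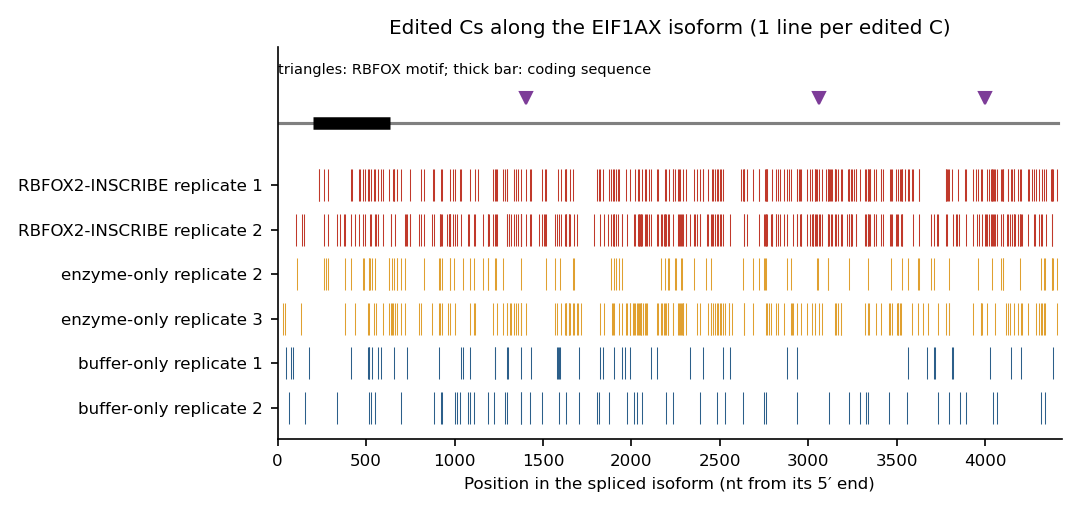
Positions of edited Cs along the spliced EIF1AX isoform of 4414 nt, 1 line per edited C in each library, with the coding sequence as a thick bar and its 3 UGCAUG motifs as triangles. The RBFOX2-INSCRIBE rows (247 and 279 lines) are filled along most of the 3′ UTR, and around the 2 distal motifs the buffer-only rows hold 0 or 1 line within 50 nt.

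UGCAUG was present in 43 of the 75 member isoforms (57.3%, against 55.6% of all isoforms), with 84 occurrences on the transcript strand. Motifs and nearby edits were counted per isoform, so those shared by several isoforms of a gene were counted once for each. Within 50 nt of UGCAUG lay 160 and 145 edited Cs in RBFOX2-INSCRIBE, 45 and 89 in enzyme-only and 36 and 45 in buffer-only. Divided by the share of all Cs of the same isoforms lying as close, this gave enrichments of 1.46 and 1.37 in RBFOX2-INSCRIBE, 0.820 and 1.03 in enzyme-only, and 0.812 and 0.977 in buffer-only. For all isoforms the RBFOX2-INSCRIBE values were 1.71 and 1.74. Both RBFOX2-INSCRIBE libraries lay above each control library, and the order of the control groups turned with the window size. Among edits in at least 2.0% of reads, of which 3 to 15 per library lay that close, the separation was lost: the enrichments were 1.47 and 1.76 in RBFOX2-INSCRIBE, 2.02 and 1.06 in enzyme-only, and 1.77 and 1.12 in buffer-only.

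**Figure D5:**
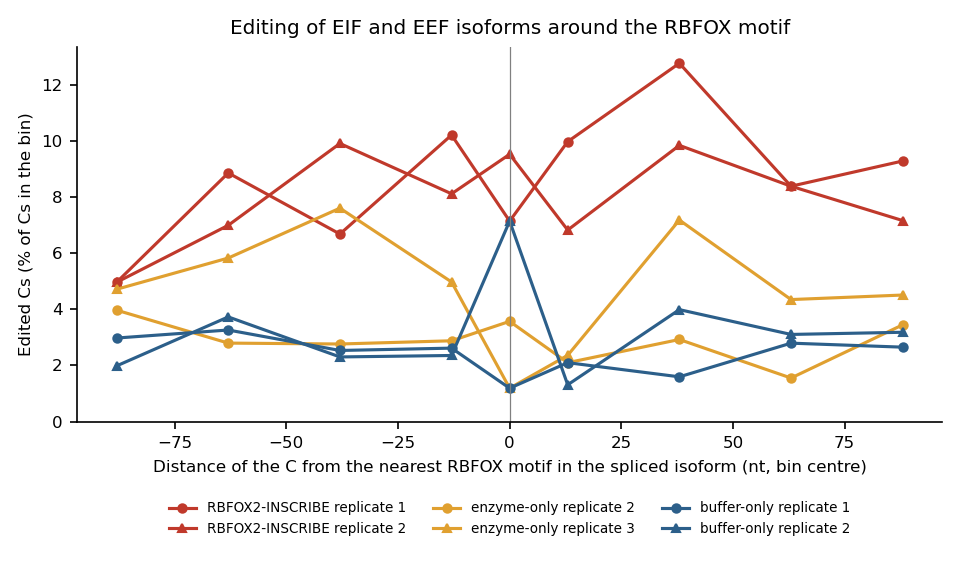
Share of Cs edited (%) by distance from the nearest UGCAUG in the spliced member isoforms, in bins of 25 nt with the motif itself as its own bin at 0, 1 line per library. In the bin 26 to 50 nt downstream RBFOX2-INSCRIBE replicate 1 reaches 12.8%, and outside the motif bin, which holds 84 Cs, both RBFOX2-INSCRIBE lines lie at or above the control lines except at -50 to -26 nt, where enzyme-only replicate 3 passes RBFOX2-INSCRIBE replicate 1.

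EIF1AX and EIF4H held the most edits near the motif. EIF1AX, with 3 motifs in its 3′ UTR, had 27 and 31 edited Cs within 50 nt in RBFOX2-INSCRIBE, 7 and 13 in enzyme-only and 3 and 5 in buffer-only. At the first motif, chrX:20127528-20127533, the counts were 5 and 8, 1 and 5, and 2 and 3, so 1 enzyme-only library equalled RBFOX2-INSCRIBE replicate 1. The 2 distal motifs, at chrX:20125871-20125876 and chrX:20124936-20124941, had 11 and 12, and 11 and 11, in RBFOX2-INSCRIBE, 4 and 4, and 2 and 4, in enzyme-only, and 0 and 1, and 1 and 1, in buffer-only. EIF4H, a partner of the eIF4A helicase, had 22 and 15, 8 and 16, and 5 and 9 over 3 isoforms. EIF2S3 had 7 and 8, 1 and 1, and 0 and 1, and EIF4A1 had 11 and 10, 8 and 9, and 6 and 8. RBFOX2-INSCRIBE was above every control library in EIF1AX, EIF2S3 and EIF4A1, and in EIF4H enzyme-only replicate 3 lay between the 2 RBFOX2-INSCRIBE replicates. EEF1A1, next after EIF4H in nearby edits, had 15 and 12, 3 and 12, and 4 and 10. There enzyme-only replicate 3 equalled RBFOX2-INSCRIBE replicate 2. In EIF4B (5 and 7, 2 and 9, 2 and 1) and EIF4A3 (5 and 5, 0 and 8, 3 and 2) enzyme-only replicate 3 was the highest library. Members with UGCAUG had a median log2 difference from enzyme-only of 0.97 (34 isoforms) and those without it 0.34 (19 isoforms), against 1.00 and 0.66 for all isoforms. Over buffer-only the members' medians were 1.25 and 1.31, with the order turned, and those of all isoforms 1.69 and 1.36, in the same order as over enzyme-only. The members' difference from enzyme-only also correlated with isoform length, with a Spearman rho of 0.353 (0.280 over all isoforms). Over buffer-only the members' rho was -0.120. Motif and length were not separated.

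The 6 member sites found in 5 libraries with the highest mean edit fractions lay in EEF1AKMT2, EIF5, EIF4EBP2, EIF3E, EIF2S1 and EIF4H, and all were listed in both buffer-only libraries. For its short-read libraries, the paper puts sites called in buffer-only controls down to RNA damage or to mistakes of reverse transcription or PCR. Elsewhere it also names endogenous editing as noise. The origin of the sites listed here was not tested. The stretches around 3 of the 6 sites are shown because C-to-U changes were listed there with no enzyme added. The changed C is in capitals (GENCODE 44 transcripts, hg38, 5′ to 3′).
EEF1AKMT2, coding sequence, chr10:124765439-124765467, minus strand: ttgaaagtaaaaggCttttttctaataac
EIF5, 3′ UTR, chr14:103344669-103344697, plus strand: tgagcctaaaacctCtttaaaaacggtca
EIF4EBP2, 3′ UTR, chr10:70422236-70422264, plus strand: tctgggcttggggtCtttaaaaccagcag
The EIF5 and EIF4EBP2 stretches share a run of 9 bases, tctttaaaa, around the edited C. The site in EEF1AKMT2, a lysine methyltransferase of eEF1A, was edited in 11.5% and 13.3% of reads in RBFOX2-INSCRIBE, 14.3% in enzyme-only replicate 3 and 12.0% and 14.8% in buffer-only, and was not listed in enzyme-only replicate 2. The EIF5 site was edited in 4.49% and 2.50%, in 4.0% in enzyme-only replicate 2 only, and in 6.19% and 2.38% in buffer-only. At neither site did the libraries given Apo1-Nb stand above those without it.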

How the data were processed

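Edits were measured in 6 long-read libraries of HEK293T cells, 2 per group. The deposited tables give, for each position and isoform, the fraction of the isoform's reads that the authors found edited. Per the study's methods, the authors made HiFi reads with ccs v8.0.0, skera v1.2.0, lima v2.9.0 and refine v4.1.1, aligned them to hg38 with pbmm2 v1.13.0, assigned uniquely placed reads to isoforms with IsoQuant v3.3.0, and removed dbSNP positions and edits found in all samples. The annotation release they used is not given in the sources used here. Read numbers are unknown, so no interval for a fraction is given, and libraries with more reads can list more sites.

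Isoforms were matched to GENCODE release 44. Edits were kept where they lay on the isoform's strand and in its exons, which held for 91.5 to 96.5% of listed pairs. For each isoform the distinct edited Cs were divided by its Cs (editsC), and log2((edited Cs + 0.5)/Cs) was compared between 2 groups at a time with limma 3.58.1 (lmFit, then eBayes with trend and robust) in R 4.3.3. An isoform entered if its edited Cs averaged 5 or more over the libraries compared, p-values were adjusted by Benjamini-Hochberg over all isoforms tested, and 0.05 was the threshold. UGCAUG was searched on the transcript strand of spliced isoforms, and the stop codon was counted with the coding sequence. The text names the 8 largest differences of each comparison, the 8 genes with the most edited sites, up to 5 genes with several isoforms tested, the 10 most edited sites near UGCAUG found in both RBFOX2-INSCRIBE libraries alone (5 shown), and the 6 sites in the most libraries; other genes were named for their role or contrast after their values were seen. The genes, lists and tests were chosen with earlier results of these data known. Scripts ran in Python 3.11.15 (pandas 2.3.3 for tables, matplotlib 3.10.9 for figures, with numpy 2.4.6 and scipy 1.17.1). Alternatives were other pseudocounts, minimums, scalings, edit filters, a fit per gene, all groups in 1 fit, a block on the replicate number and omission of single libraries; counts by preceding base and summed edit fractions were added after seeing the data.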

Additional observations from a re-analysis of the deposited data

How the results depend on the processing

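Scaling to the same total turned the members' median to -0.24 for RBFOX2-INSCRIBE over enzyme-only, -0.20 over buffer-only (0 isoforms higher) and -0.21 for enzyme-only over buffer-only (0 higher). RBFOX2-INSCRIBE over enzyme-only gave 1 member, EIF3E-234, with a minimum mean of 10 and with a replicate block, and with each library left out 0 to 20 members (20 without enzyme-only replicate 3) and medians of 0.25 to 0.99. RBFOX2-INSCRIBE over buffer-only gave 1 member and a median of 0.79 at edit fractions of at least 0.02 (7 tested), 20 members with all 3 groups in the fit, 18 by summed edit fraction, 30 with the replicate block, medians of 1.15 with all listed edits and 1.14 per gene, 1.77 at Cs after A or U, and 0 members and 0.24 at Cs after G or C. Leaving out each library gave 2 to 25 members and medians of 1.19 to 1.32. Enzyme-only over buffer-only gave 0 members with pseudocount 1, minimum means of 1 or 10, edit fractions of at least 0.02 (median -0.60, 4 tested), per gene, with the replicate block, at Cs after G or C (median 0.081) and by summed edit fraction (median 0.79), and 3 at Cs after A or U (median 1.12). Leaving out each library gave 0 members and medians of 0.45 to 0.97. EIF4H-212 in that comparison turned without enzyme-only replicate 2, with a range of -1.83 to 0.89 over libraries left out. The UGCAUG enrichment of enzyme-only minus buffer-only was 0.030 with 50 nt, -0.12 with 25 nt, -0.060 with 100 nt and -0.075 to 0.13 with libraries left out. The block used the title numbers for RBFOX2-INSCRIBE with buffer-only and the replicate tag (1 and 2) where enzyme-only entered. Libraries share only a number: correlations of same-numbered deviations were 0.0985 for RBFOX2-INSCRIBE with enzyme-only, 0.0373 for RBFOX2-INSCRIBE with buffer-only and -0.0373 for enzyme-only with buffer-only, over 2 pairs each. Read depth is unknown, which limits every comparison of site numbers.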
